A study of Mus musculus with 8 samples.

Results

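The sodium-glucose cotransporter *Slc5a2* and 8 other hexose transporters of the renal tubule were examined in whole-kidney RNA-Seq from 4 control and 4 SIK mutant mice. The 9 genes were 5 members of the SLC5 family (*Slc5a2*, *Slc5a1*, *Slc5a9*, *Slc5a10* and *Slc5a11*) and 4 members of the SLC2 family (*Slc2a1*, *Slc2a2*, *Slc2a5* and *Slc2a9*), of 55401 genes listed for each kidney. *Slc5a2* was selected on its lower measured level in mutant than in control kidneys in these libraries, and the others were added as its relatives. Its values in that contrast are therefore given as a description, with no test. All 9 genes were among the 14326 that passed the filter on low counts and entered the fit over all genes.

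Glucose is filtered freely at the glomerulus and is normally recovered almost completely in the proximal tubule. SLC5 proteins sit in the luminal membrane and use the sodium gradient to carry sugar into the cell, and SLC2 proteins carry sugars passively, several of them out of the cell across the basolateral membrane. *Slc5a2* encodes SGLT2, the high-capacity cotransporter of the early proximal tubule and the target of the gliflozin drugs, while *Slc5a1* encodes SGLT1, which works with higher affinity further downstream.

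Salt-inducible kinases (SIKs) are inhibited when parathyroid hormone signals in the kidney, and the study deleted their genes to ask what follows for renal gene expression. Per the labels, controls were SIK1f/f;SIK2f/f,SIK3f/f, with loxP-flanked (floxed) alleles and no Cre, and mutants had the same floxed alleles together with the transgene Six2-Cre. The study's text instead describes the mutants as carrying 1 floxed and 1 wild-type allele of *Sik1*, so the group is called SIK mutant here. Six2-Cre acts in nephron progenitors, so the floxed alleles remain intact in stromal, endothelial and blood cells, and the mice carried the deletion from development onward. Age and sex are not in the labels, and each kidney came from a separate mouse.

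Markers of the labelled tissue were present. All 12 genes listed for the first and second proximal segments and all 8 for the loop of Henle and distal nephron were tested, and the former summed to 4011 to 4906 TPM (a level per length, scaled to the same total in every kidney) in controls and 3918 to 4675 in mutants. Depth was 10179648 to 10925100 expected counts per kidney, so that 3 counts, the smallest level taken as detected, equalled 0.263 to 0.304 CPM (counts relative to library size, with TMM scaling factors). These factors ran from 0.904 to 1.05 in controls and from 0.957 to 1.05 in mutants. Mean levels in controls and mutants were 62.9 and 39.5 CPM for *Sik3* (adjusted p = 0.0697 in edgeR's quasi-likelihood test and 3.7e-06 in DESeq2), 9.14 and 6.72 for *Sik2* (adjusted p = 0.794) and 40.8 and 50.6 for *Sik1* (adjusted p = 0.601). Controls 3 and 4 stood apart: they had no Y-linked signal and held 260 and 298 CPM of *Xist*, against at most 0.494 CPM in the other 6 kidneys. By these transcripts controls 3 and 4 were female and the other 6 kidneys, with all 4 mutants, male. Sex was therefore not balanced between the groups. Fold changes are also given without controls 3 and 4, from a fit to 2 controls and 4 mutants.

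Sequences set the limits on telling these relatives apart, and the coding sequences of the GENCODE M21 transcripts were compared for that reason. *Slc5a2* has 2013 coding bases and begins as follows.
*Slc5a2*: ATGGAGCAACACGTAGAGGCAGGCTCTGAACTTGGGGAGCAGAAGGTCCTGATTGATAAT
The longest identical run between *Slc5a2* and any other of the 9 coding sequences was 22 bases, shared with *Slc5a10*, and it is set in capitals with 20 bases on either side, from coding base 960 of *Slc5a2* and 927 of *Slc5a10*.
*Slc5a2*: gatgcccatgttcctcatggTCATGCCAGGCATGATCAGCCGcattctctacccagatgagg
*Slc5a10*: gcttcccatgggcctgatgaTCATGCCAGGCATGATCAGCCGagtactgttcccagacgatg
The run shared with *Slc5a1* was 19 bases and lay next to it, shown here in the same way from coding base 942 of *Slc5a2* and 948 of *Slc5a1*.
*Slc5a2*: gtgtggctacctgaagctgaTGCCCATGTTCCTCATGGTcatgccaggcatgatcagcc
*Slc5a1*: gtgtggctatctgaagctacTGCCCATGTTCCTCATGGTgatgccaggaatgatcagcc
The runs that *Slc5a2* shared with *Slc5a11* and *Slc5a9* were shorter, at 17 and 14 bases. The posterior standard deviation that RSEM gives to each count, which grows where reads could belong to several genes, was 0 for all 9 genes in all 8 kidneys.

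The level of *Slc5a2* transcripts was 454, 555, 471 and 535 CPM in controls 1 to 4. In SIK mutants 1 to 4 it was 316, 315, 319 and 321 CPM. Every mutant lay below every control, and the mutants lay much closer together than the controls did. The means were 504 ± 48.6 and 318 ± 2.64 CPM (SD, n = 4 each). On the log2 scale the fold change was -0.67 with a standard error of 0.0955, which equals a percent change of -36.9%. The expected counts behind these levels were 4478 to 6108 per control and 3295 to 3576 per mutant. In TMM-scaled CPM the controls without Y-linked reads averaged 503 and those with them 505. This likeness depended on the scale. In TPM controls 3 and 4 had 280 and 320, both above the 223 and 276 of controls 1 and 2. Without controls 3 and 4 the log2 fold change was -0.66. In a whole organ, fewer cells that express a gene and less RNA of it per cell cannot be told apart.

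**Figure D1:**
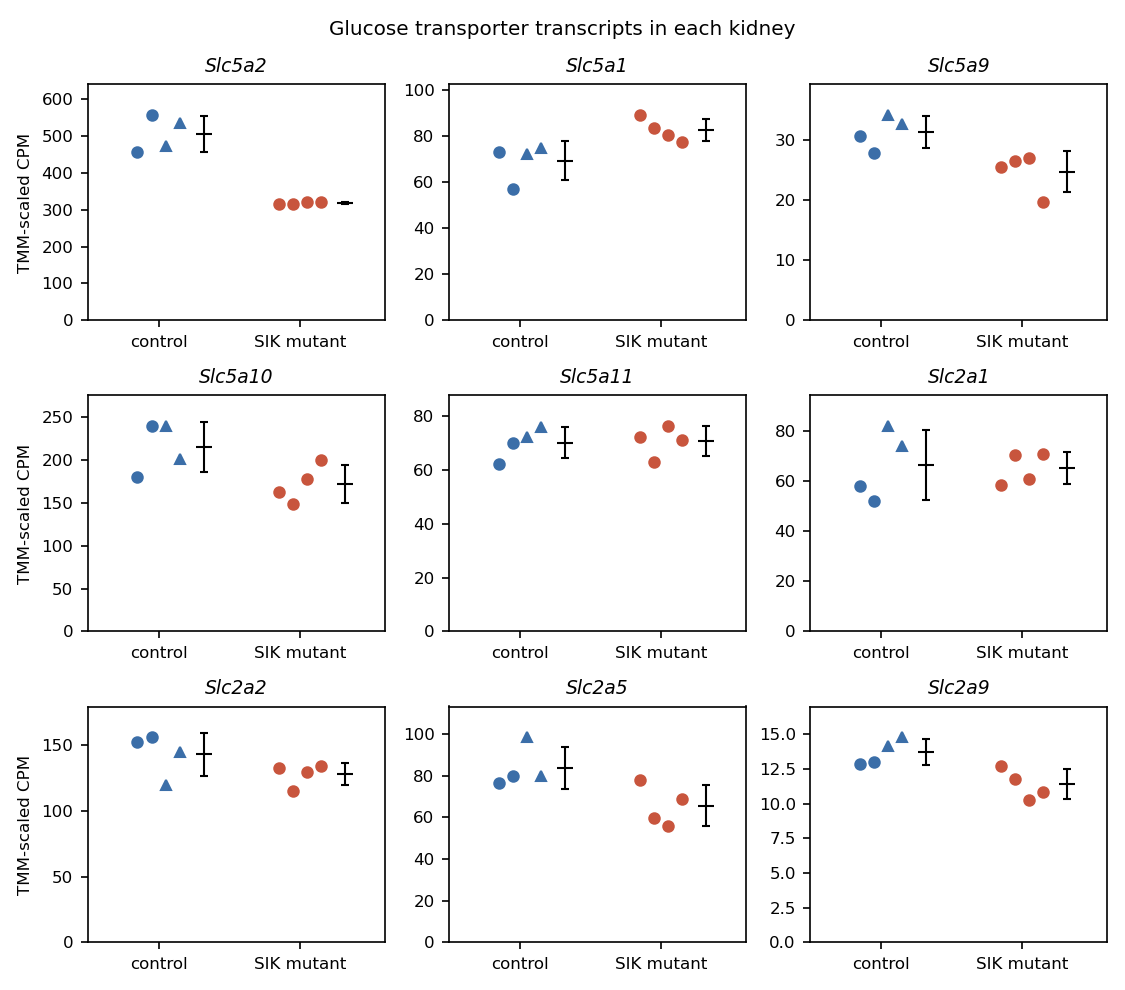
Level of each transporter in TMM-scaled CPM (vertical axes, from 0) in 4 control (blue) and 4 SIK mutant (red) kidneys, 1 point per kidney, with triangles for the 2 controls without Y-linked reads and black bars for mean ± SD. The 4 mutant points of *Slc5a2*, the gene selected on this contrast, lie between 315 and 321 CPM, below all controls. In most other panels the 2 groups overlap or nearly touch.

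Per length, *Slc5a2* stood at 223, 276, 280 and 320 TPM in controls 1 to 4 and at 183, 192, 192 and 172 TPM in mutants 1 to 4, again without overlap. It was the only 1 of the 9 genes whose groups did not overlap in TPM, a property of 5.1% of all genes tested. *Slc5a2* was selected on this contrast, so its own separation is a description and is not to be set against that share. Since the TPM scale moved the median log2 difference of all genes tested by 0.11 upward in mutants, the log2 difference of -0.56 in TPM is to be read against that shift. Among all genes, 173 had a higher mean CPM than *Slc5a2* in controls and 334 did in mutants.

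The mix of isoforms behind these levels was read from the length of a gene's transcripts weighted by their abundance. For *Slc5a2* it was 2076 ± 42.2 bases in controls and 2087 ± 31.4 in mutants (n = 4 each), with overlapping ranges of 2040 to 2137 and 2059 to 2129. For the 7 other genes with more than 1 transcript length, no difference passed 0.05 in a two-sided exact permutation test. The lowest p was that of *Slc5a9*, whose mean was 3090 bases in controls and 2871 in mutants (exact permutation p = 0.114, adjusted p = 0.8 over 7 genes). This comparison was chosen after the data had been seen, and 4 against 4 kidneys cannot give a p below 0.0286.

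Over all 8 kidneys, the order of levels per length began with *Slc5a2* at 230 TPM (mean), followed by *Slc5a10* at 111, *Slc2a2* at 66.5 and *Slc5a11* at 43.3. *Slc2a5* (31.8 TPM), *Slc2a1* (28.4), *Slc5a1* (20.7), *Slc5a9* (10.7) and *Slc2a9* (5.57) came after them. In all 8 kidneys *Slc5a2* ranked first and *Slc5a10* second. Neighbours in the order were compared within each kidney. The order was taken from these same values, so the p describes only how steadily it held between kidneys. In 7 of the 8 pairs the upper gene was higher in every kidney (two-sided exact sign-flip permutation test, p = 0.0078, the smallest that 8 kidneys allow, adjusted p = 0.0089). The exception was *Slc2a5* and *Slc2a1*, where *Slc2a5* was higher in 5 of 8 kidneys (exact permutation p = 0.195). All 4 controls and mutant 1 had *Slc2a5* above *Slc2a1*, while the other 3 mutants had the reverse.

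**Figure D2:**
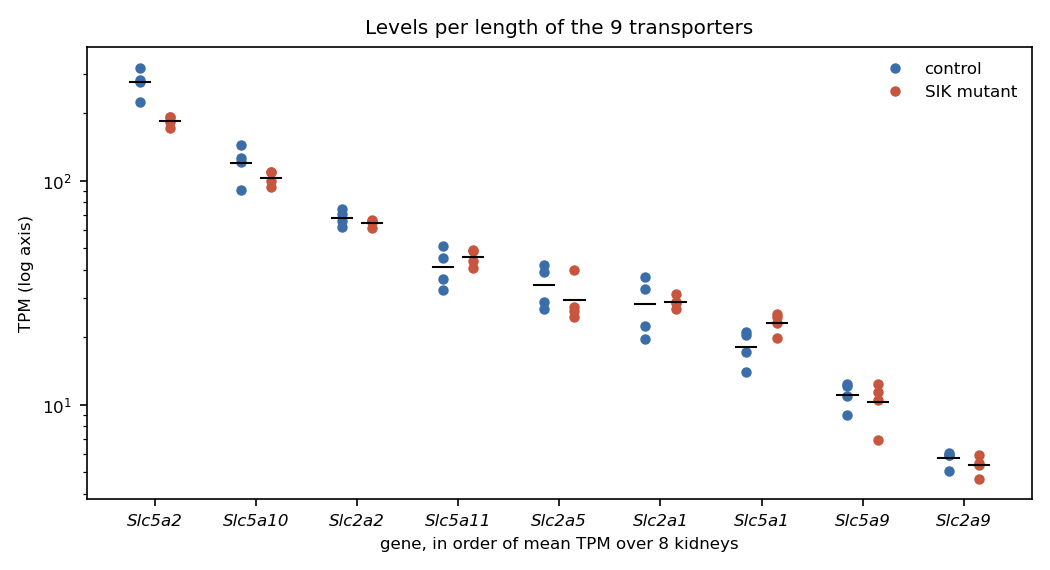
Levels per length (TPM, log axis) of the 9 transporters, ordered by their mean over 8 kidneys, with 1 point per kidney (blue control, red SIK mutant) and black lines for group means. The genes span from 230 TPM for *Slc5a2* to 5.57 TPM for *Slc2a9*, and the points of *Slc2a5* (24.6 to 41.9 TPM) and *Slc2a1* (19.7 to 37.1 TPM) overlap.

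No gene passed an adjusted p of 0.05 in edgeR's quasi-likelihood test over all genes (0 of 14326, 0.0%), and none of the 8 other transporters did. At an unadjusted p under 0.05 the test gave 911 genes, 6.36% of those tested, where 716 would be reached if no gene differed. Of the 8 transporters, 5 were among them, 4 with a lower mean in mutants and 1 with a higher one. DESeq2, the other tool for counts, called 67 genes (0.468%) and none of the 8. The median log2 fold change of the 8 was -0.22, against -0.0038 for all genes tested, and 6 of the 8 were negative, 1 of which, *Slc2a1*, was positive in TPM.

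**Figure D3:**
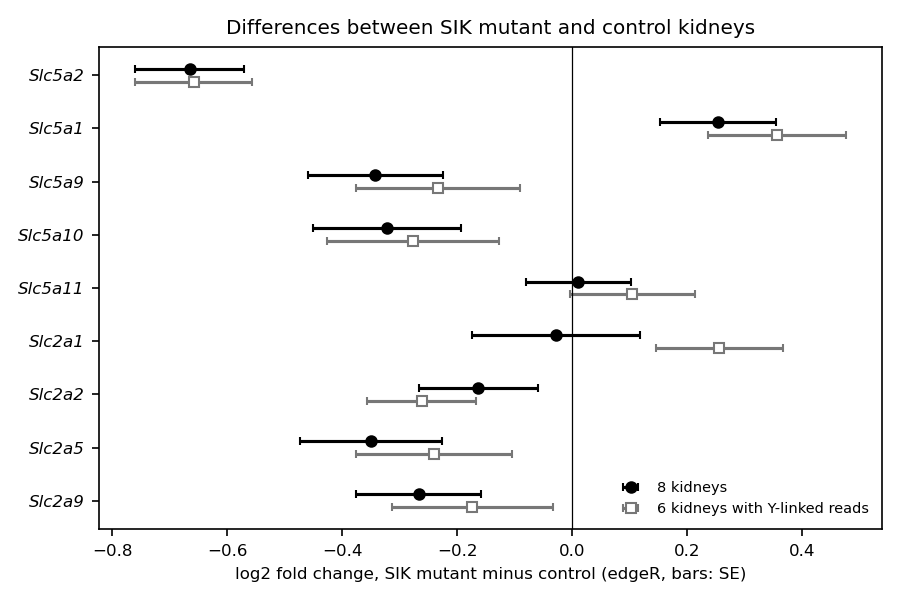
Log2 fold change between SIK mutant and control kidneys (horizontal axis, edgeR estimates with standard errors) for each transporter, from all 8 kidneys (black circles) and from the 6 kidneys with Y-linked reads (open squares). *Slc5a2*, the gene selected on this contrast, lies farthest from 0 at -0.67 and -0.66. *Slc5a1* is on the positive side at 0.25 and 0.36, and *Slc2a1* changes side from -0.03 to 0.26.

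*Slc5a1* had the opposite sign to *Slc5a2*. It was measured at 73.3, 56.9, 72.3 and 74.9 CPM in controls and at 89.1, 83.7, 80.5 and 77.6 CPM in mutants. All mutants were above all controls, but control 4 and mutant 4 lay close together. The log2 fold change was 0.25 ± 0.101 (SE; edgeR p = 0.0316, adjusted p = 0.751), and the two-sided exact permutation test on CPM gave p = 0.0286, the smallest it allows. In TPM the groups overlapped, at 14.0 to 21.0 and 19.8 to 25.4 (exact p = 0.0857). The summed level of markers of the third proximal segment, in which SGLT1 is known to act, was lowest in controls 3 and 4. It was 6078, 5102, 2608 and 2186 TPM in controls 1 to 4 and 4181 to 6268 TPM in mutants, with all 10 markers tested. Not every marker followed the sum. The log2 fold change of *Slc6a18*, an amino acid carrier among them, moved from -0.47 to -0.13 when controls 3 and 4 were left out. The part of these markers in the *Slc5a1* values was not tested.

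As a pair, the luminal glucose cotransporters were further apart in controls. The TPM ratio of *Slc5a2* to *Slc5a1* was 13.0, 19.8, 13.8 and 15.2 in controls 1 to 4 and 7.19, 7.78, 8.30 and 8.72 in mutants 1 to 4. Every control lay above every mutant, and the ratio of 2 genes within a kidney does not depend on how the libraries are scaled. Since *Slc5a2* was selected on this contrast, no test is given. For pairs without *Slc5a2*, the ratio of *Slc5a10* to *Slc5a1* was 6.77 ± 1.66 in controls and 4.47 ± 0.808 in mutants (n = 4 each, two-sided exact permutation p = 0.0571), and that of *Slc2a2* to *Slc2a1* was 2.64 ± 0.932 and 2.27 ± 0.209 (exact permutation p = 0.514). Neither difference passed 0.05.

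*Slc5a2* made up 45.1%, 46.9%, 43.2% and 47.5% of the summed TPM of the 9 transporters in controls 1 to 4. In mutants 1 to 4 its share was 36.3%, 39.3%, 37.9% and 36.0%. The sum itself was 602 ± 79.2 TPM in controls and 495 ± 13.4 TPM in mutants, and control 1, at 495 TPM, lay within the range of the mutants. The share of *Slc5a2* is part of the contrast it was selected on and is a description.

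**Figure D4:**
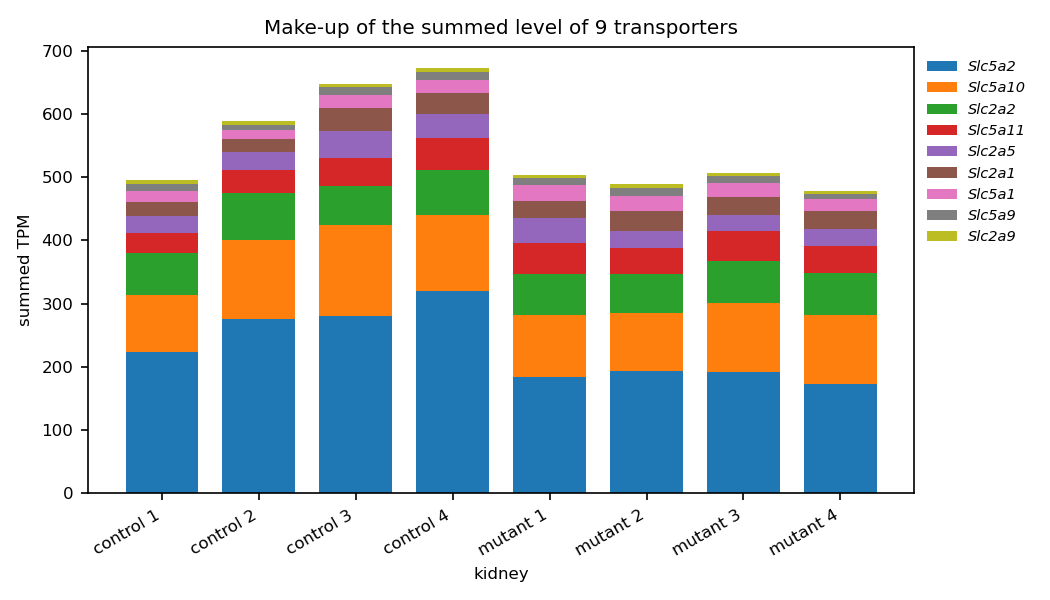
Summed TPM of the 9 transporters in each kidney (vertical axis, bars from 0), divided by gene in the order of mean level. The *Slc5a2* block at the base takes 43.2% to 47.5% of the bar in controls and 36.0% to 39.3% in mutants, while the total of control 1 is as low as in the mutants.

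*Slc5a10* encodes SGLT5, a luminal carrier of mannose and fructose, and was the second most abundant of the transporters. Its level was 181, 240, 239 and 202 CPM in controls and 163, 148, 178 and 200 CPM in mutants. The highest mutant exceeded the lowest control, so that the groups overlapped. The log2 fold change was -0.32 ± 0.129 (SE; edgeR p = 0.0328, adjusted p = 0.754; exact permutation p = 0.0571).

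*Slc5a9* encodes SGLT4, another carrier of mannose and related sugars. It stood at 30.8, 27.9, 34.2 and 32.7 CPM in controls and at 25.5, 26.6, 27.1 and 19.7 CPM in mutants. The groups were separated by less than 1 CPM, between control 2 and mutant 3. The log2 fold change was -0.34 ± 0.117 (SE; edgeR p = 0.0161, adjusted p = 0.702; exact permutation p = 0.0286), whereas in TPM the groups overlapped (9.03 to 12.4 and 6.94 to 12.4 TPM, exact permutation p = 0.629).

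*Slc5a11* encodes SMIT2, which carries inositol as well as glucose. Its level of 62.2 to 75.9 CPM in controls was matched by 63.0 to 76.2 CPM in mutants. Its log2 fold change was 0.01 ± 0.0909 (SE), with an adjusted p of 0.990 in edgeR. The sign of so small a difference turned in 2 of 17 alternative analyses.

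In the SLC2 family, *Slc2a2* encodes the basolateral carrier GLUT2, the partner of SGLT2 in the early proximal tubule. It was measured at 153, 156, 120 and 144 CPM in controls and at 133, 115, 129 and 134 CPM in mutants. Control 3 lay among the mutants, and the groups overlapped. Its log2 fold change was -0.16 ± 0.104 (SE; edgeR adjusted p = 0.844; exact permutation p = 0.143). Without controls 3 and 4 it was -0.26, with an adjusted p of 0.374.

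*Slc2a1* encodes GLUT1, found in later nephron segments and in many other cells. Controls 1 and 2 had 58.0 and 51.9 CPM and controls 3 and 4 had 81.9 and 73.9 CPM, with the 4 mutants between 58.6 and 70.8 CPM. The control spread therefore followed the presence of Y-linked reads, and *Slc2a1* was the transporter with the largest control coefficient of variation, 20.9%. Its log2 fold change was -0.03 ± 0.146 (SE; edgeR adjusted p = 0.987) in all kidneys and 0.26 ± 0.110 without controls 3 and 4 (adjusted p = 0.438), so its direction depended on those 2 kidneys.

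*Slc2a5* encodes GLUT5, a fructose carrier of the luminal membrane. Its level was 76.5, 79.6, 98.4 and 79.8 CPM in controls and 77.9, 59.9, 56.0 and 68.6 CPM in mutants. Mutant 1 lay within the range of the controls and the other 3 mutants below it. For *Slc2a5* the log2 fold change was -0.35 ± 0.124 (SE; edgeR p = 0.0191, adjusted p = 0.713; exact permutation p = 0.0571).

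*Slc2a9* encodes GLUT9, which carries urate, and was the least abundant of the 9 genes. It stood at 12.9, 13.0, 14.2 and 14.8 CPM in controls and at 12.7, 11.8, 10.3 and 10.9 CPM in mutants. The nearest kidneys of the 2 groups differed by under 1 CPM, with 106 to 169 counts behind each value. Counting error alone gives a coefficient of variation of 8.24% in controls at this depth, above the 6.67% that was observed. The log2 fold change was -0.27 ± 0.109 (SE; edgeR p = 0.0356, adjusted p = 0.758; exact permutation p = 0.0286). In TPM the groups overlapped (5.07 to 6.08 and 4.68 to 5.95 TPM, exact permutation p = 0.314).

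In CPM, the groups did not overlap for 4 of the 9 transporters (*Slc5a2*, *Slc5a1*, *Slc5a9* and *Slc2a9*), against 4.03% of all genes tested, and for 3 of the 8 that exclude *Slc5a2*. That count rested on the scaling, since both in TPM (5.1% of all genes tested) and in counts scaled to library totals alone (4.01%) *Slc5a2* was the only 1 of the 9 whose groups were separate. When controls 3 and 4 were left out, the groups did not overlap for 6 of the 9, or 5 of the 8 without *Slc5a2*, but this was then true of 21.8% of all genes tested. In that smaller comparison edgeR called 21 of 14719 genes (0.143%), none of the 8 transporters among them, and 1640 genes (11.1%) had an unadjusted p under 0.05, including 3 of the 8. There the log2 fold changes were 0.36 for *Slc5a1*, -0.23 for *Slc5a9*, -0.28 for *Slc5a10*, 0.11 for *Slc5a11*, -0.24 for *Slc2a5* and -0.17 for *Slc2a9*. The sign was that of all 8 kidneys for each transporter except *Slc2a1*.

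The neighbourhood of *Slc5a2* added a second gene of the same pattern. *Slc5a2* lies on the plus strand at chr7:128265657-128272430 (mm10), and *BC017158*, named only by its clone, lies on the minus strand at chr7:128271379-128298170. The 2 genes overlap by 1052 bases at their 3' ends, and 597 of these are exonic in both, which is 20.6% of the exonic bases of *Slc5a2* and 10.8% of those of *BC017158*. *BC017158* was measured at 176 ± 14.8 CPM in controls and 116 ± 11.5 CPM in mutants (n = 4 each), with ranges of 163 to 194 and 104 to 129 that did not overlap. Its log2 fold change was -0.60 ± 0.101 (SE; edgeR adjusted p = 0.163), and DESeq2 gave it an adjusted p of 5.4e-05. The use of strand in counting is not given in the sources used here. For both genes the posterior standard deviation of the count was 0 in all 8 kidneys, so that RSEM gave each read to 1 gene. Whether reads from the 597 shared bases were given to the gene they came from was not tested.

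The other genes tested within 50 kb of *Slc5a2* lay upstream of it. *Armc5* was at 30.9 ± 3.27 CPM in controls and 30.2 ± 2.53 in mutants (n = 4 each), with a log2 fold change of -0.03. *Tgfb1i1* and *9130023H24Rik* had log2 fold changes of -0.03 and -0.08, and all 3 were positive in TPM. The 3 genes overlapped between groups, and their adjusted p in edgeR was 0.958 to 0.993. The remaining 4 annotated genes in this window, with at most 3 counts in any kidney, could not be compared.

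**Figure D5:**
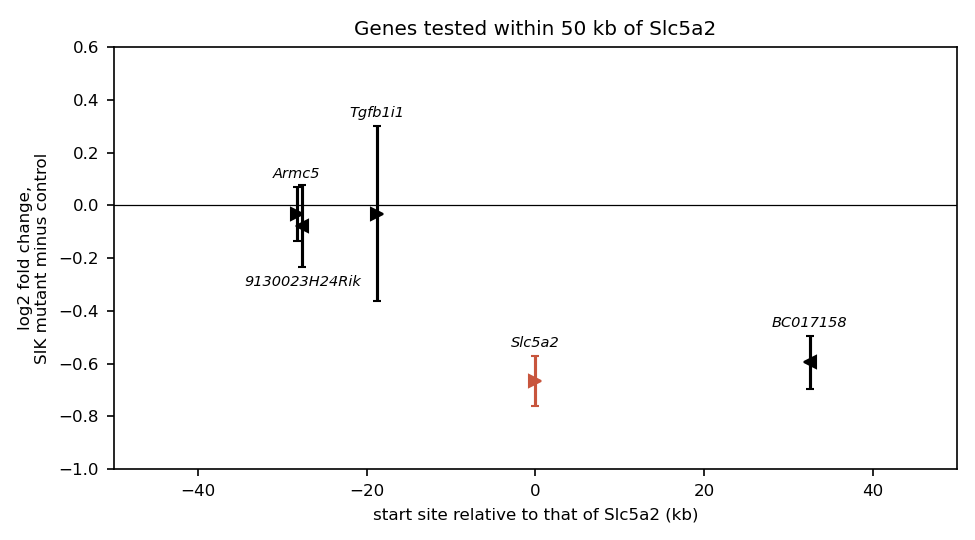
Log2 fold change between SIK mutant and control kidneys (vertical axis, edgeR estimate ± SE) of the 5 genes tested within 50 kb of *Slc5a2*, placed by the distance in kb of their start sites from that of *Slc5a2* (arrowheads point along the strand). *Slc5a2* at -0.67 and *BC017158* at -0.60 lie apart from the 3 upstream genes, which lie between -0.08 and -0.03.

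*BC017158* was also the gene whose levels followed those of *Slc5a2* most closely among 9267 genes with a mean of at least 10 CPM, with Pearson r = 0.959 of log2 CPM over 8 kidneys. *Tmed3* (r = 0.942), *Gabarapl1* (0.941), *Tinag* (0.938) and *Sik3* (0.935) came next. This likeness includes the difference between groups. After the group means had been subtracted, the closest were *Zfp513* (r = 0.964), *Tfpi2* (0.956), *Yrdc* (0.940), *Stk11ip* (0.936) and *Irs2* (0.936), so that no gene was in both sets of 5. Among the transporters, *Slc2a9* (0.783) and *Slc5a10* (0.739) were closest over all 8 kidneys and *Slc5a1* (-0.802) was farthest, and after subtraction of the group means these values were 0.0587, 0.374 and -0.593. These are descriptions over 8 points that share library scaling.

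Of 8 further SLC5 genes listed, 4 passed the filter and none of them passed the adjusted test in edgeR, while DESeq2 called 1, *Slc5a6*. Among the 4, 3 had a lower and 1 a higher mean in mutants. *Slc5a12*, a luminal lactate carrier and the most abundant of them, had a log2 fold change of -0.11 ± 0.157 (SE; edgeR adjusted p = 0.940). *Slc5a6*, a carrier of biotin and pantothenate, was the one whose groups did not overlap, at 34.9 ± 12.6 CPM in controls and 17.8 ± 2.08 in mutants (n = 4 each; edgeR adjusted p = 0.454, DESeq2 adjusted p = 0.0286). Its log2 fold change of -0.98 became -0.44 without controls 3 and 4. Of 8 further SLC2 genes, 4 were tested, with 2 higher, 2 lower and none separate, and *Slc2a4*, the insulin-responsive GLUT4 and the most abundant of these 4, was at 38.3 ± 8.37 and 37.2 ± 5.91 CPM (n = 4 each; log2 fold change -0.05, positive in TPM and in the 6 kidneys; edgeR adjusted p = 0.982).

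The 9 genes listed as partners and transcription factors of these transporters were all tested. Their median log2 fold change was 0.04, with 5 higher and 4 lower, none separate between groups and none past the adjusted test in edgeR. *Pdzk1ip1*, which encodes the small membrane protein MAP17 that SGLT2 needs for its activity, was the most abundant, at 603 ± 39.9 CPM in controls and 547 ± 48.9 in mutants (n = 4 each). Its log2 fold change was -0.14 ± 0.102 (SE; edgeR adjusted p = 0.865), and its groups overlapped.

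Of 13 listed genes of hexose metabolism, 11 were tested, of which 8 were lower, 3 higher and none separate, with a median log2 fold change of -0.10. Among 7 of 8 genes of urate handling that were tested, alongside *Slc2a9*, 6 were higher and 1 lower, with a median of 0.10 in all kidneys and -0.30 in the 6 with Y-linked reads. *Slc22a12*, the urate exchanger of the luminal membrane, had 0.04 ± 0.342 (SE; edgeR adjusted p = 0.991) and turned to -0.50 without controls 3 and 4. All 4 genes of inositol handling were tested, alongside *Slc5a11*, with 2 higher and 2 lower, and *Miox*, which oxidises inositol, had -0.34 ± 0.121 (SE; edgeR adjusted p = 0.713).

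The 12 markers of the early proximal tubule, where SGLT2 acts, were compared as well. Of the 12, 9 were lower and 3 higher, with a median log2 fold change of -0.12, and of -0.074 in the 6 kidneys with Y-linked reads. In CPM, 1 of the 12 did not overlap between groups, against 4.03% of all genes tested. That gene was *Slc6a19*, the luminal carrier of neutral amino acids, at 193 ± 26.3 CPM in controls and 138 ± 26.4 in mutants (n = 4 each; log2 fold change -0.48 ± 0.154 SE; edgeR adjusted p = 0.678). Among the 10 markers of the third segment 8 were higher and 2 lower, and *Slc6a18*, a related amino acid carrier, was the one that did not overlap (log2 fold change -0.47, -0.13 without controls 3 and 4). The median of the third-segment list was 0.30 in all kidneys and -0.16 in the 6. The part of either list in the *Slc5a2* values was not tested.

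Markers of other cell types, inside and outside the nephron, differed between kidneys as well. The 7 adipocyte markers summed to 26.8, 36.7, 310 and 96.4 TPM in controls 1 to 4 and to 300, 244, 259 and 334 TPM in mutants 1 to 4. In control 1, 6 of the 7 were at 0, in control 2, 2 were, and in control 4, 1 was. The 6 adipocyte markers tested were all higher in mutants. Their median log2 fold change was 1.5, and 6.0 in the 6 kidneys with Y-linked reads. The 6 immune markers, of which 4 were tested, summed to 18.3 to 34.3 TPM in controls and 25.8 to 48.4 TPM in mutants. The 4 tested were all higher in mutants, with a median log2 fold change of 0.50, and of 0.79 in the 6 kidneys. The 6 endothelial markers summed to 194 to 347 and 208 to 307 TPM, the 6 podocyte markers to 53.2 to 99.5 and 54.4 to 93.7 TPM, the 8 of the loop and distal nephron to 1512 to 2206 and 1540 to 2356 TPM, and the 8 of the collecting duct to 298 to 701 and 462 to 805 TPM, in controls and mutants respectively. The endothelial, podocyte, loop and collecting duct lists had median log2 fold changes between -0.071 and -0.015. No gene of any of these cell-type lists passed the adjusted test in edgeR. The part of these cell types in the transporter values was not tested.

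Promoters of 7 of the 9 genes were available from RefSeq (GRCm38.p6), in 8 entries, and those of *Slc5a2* and *Slc5a9* were not analysed here. The 250 bases before each start were searched on both strands. The letters searched were GTTAAT, a half-site of the tubular factor HNF1, CAAAGTCCA, a core of HNF4, TGACGTCA, the full cyclic AMP response element bound by CREB, and TGACG, its half-site, which the full element contains. The HNF1 half-site was in 1 of the 8 entries, against 6.43% of 32851 promoters. The other 3 were in none of the 8, against 0.384%, 1.55% and 17.8% of all promoters. The 1 match began 75 bases before a start of *Slc5a10* (chr11:61720800-61721049, minus strand) and reads ATTAAC, the reverse complement of the half-site. It is in capitals in this promoter, written along the strand of the gene.
*Slc5a10*: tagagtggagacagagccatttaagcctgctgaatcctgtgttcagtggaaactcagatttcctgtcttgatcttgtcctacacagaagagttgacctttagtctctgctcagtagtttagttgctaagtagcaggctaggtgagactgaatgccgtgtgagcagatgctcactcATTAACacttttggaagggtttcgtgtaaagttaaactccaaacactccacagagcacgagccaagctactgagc
Motif matches are descriptions of these letters in this window.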

How the data were processed

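RNA-Seq was performed on whole kidneys of 4 control and 4 SIK mutant mice with a BGISEQ500 instrument. The submitters' processing notes name FastQC, STAR 2.7.2b, RSEM 1.3.0, DESeq2 and mm10. Annotation release and strand use are not given in the sources used here. For each kidney the authors deposited 1 file of expected counts, the reads per gene that RSEM estimated, not normalised. In the same files, TPM as deposited is scaled to length and library total. The posterior standard deviations of the counts and the effective lengths are other values in the deposited files. Symbols and coordinates came from GENCODE M21, which matched 55141 of 55401 genes without version and 54349 with it.

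Expected counts were rounded and tested with edgeR 4.0.16 (R 4.3.3; TMM, filterByExpr, quasi-likelihood F test, legacy dispersions) on all 8 kidneys with no covariate, with Benjamini-Hochberg adjustment over all genes tested and a threshold of 0.05. Single genes were also compared in CPM with an exact permutation test (two-sided, all 70 ways of assigning the kidneys; scipy 1.17.1), whose smallest p is 0.0286. The scripts were tested on simulated data. Libraries carry no molecular identifiers, so the floor of 3 counts covers counting error only. Replicates of a group were distinct (chi-square per degree of freedom 9.44 to 53.8).

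The transporters and all gene lists were chosen with earlier results of these data known. The rule for named genes took the transporters, *Sik1* to *Sik3*, in each list the 3 genes of highest mean TPM and every gene whose groups do not overlap, all tested genes within 50 kb of *Slc5a2*, and the 5 genes most correlated with it before and after subtraction of group means. Of the lists beside the transporters only the most abundant gene and the separated genes were named, marker lists being given by counts and sums, except for non-overlapping proximal tubule genes, and 1 item is not reported here. Alternatives were RLE factors, DESeq2 1.42.0, no filter, legacy off, limma 3.58.1 on log2(TPM + 1) and log2(TPM + 0.1), the replicate number as a block, the 6 kidneys with Y-linked reads, a Y-linked covariate and each kidney left out.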

Additional observations from a re-analysis of the deposited data

Results flagged for a closer look

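Of 18 groups of 4 kidneys, 1 for each transporter and genotype, 2 held a kidney far from the other 3 by Dixon's criterion at the 95% level (the gap to the nearest kidney over the whole range), where chance gives about 0.9. *Slc5a1* in control 2 was 56.9 CPM, while controls 1, 3 and 4 had 72.3 to 74.9 CPM, a gap of 0.853 of the range. *Slc2a5* in control 3 was 98.4 CPM against 76.5 to 79.8 CPM (gap 0.849).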

How the results depend on the processing

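Of the 9 transporters, *Slc5a2* (log2 fold change -0.71 to -0.56) and 6 others kept their direction in all 17 alternatives, with ranges of 0.17 to 0.37 for *Slc5a1*, -0.40 to -0.11 for *Slc5a9*, -0.40 to -0.21 for *Slc5a10*, -0.27 to -0.069 for *Slc2a2*, -0.44 to -0.21 for *Slc2a5* and -0.32 to -0.087 for *Slc2a9*. The values nearest 0 came from the TPM scale for these 6 except *Slc5a1*. None of the 8 besides *Slc5a2* had an adjusted p under 0.05 in any of them, the lowest being 0.298 for *Slc5a1*. *Slc5a11* turned sign within a range of -0.042 to 0.063 when single kidneys were left out. *Slc2a1* turned to 0.079 and 0.083 with limma on log2(TPM + 1) and log2(TPM + 0.1), to 0.26 in the 6 kidneys with Y-linked reads and to 0.26 with the Y-linked covariate, and ranged from -0.13 to 0.089 with single kidneys left out. With limma on log2(TPM + 1) and log2(TPM + 0.1), *9130023H24Rik* was 0.031 and 0.041, *Armc5* 0.14 and 0.15, *Slc2a4* 0.11 and 0.11 and *Tgfb1i1* 0.0051 and 0.0061. In the 6 kidneys and with the covariate, *Slc22a12* was -0.50 and -0.53, *Slc2a4* 0.24 and 0.24 and *Tgfb1i1* 0.45 and 0.45. Leaving out single kidneys gave *9130023H24Rik* -0.16 to 0.027, *Armc5* -0.11 to 0.0057, *Slc22a12* -0.18 to 0.30, *Slc2a4* -0.16 to 0.080 and *Tgfb1i1* -0.39 to 0.14. The cause of these turns was not tested.

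The count of genes called, 0, became 67 with DESeq2, 9 without the filter, 1 with legacy off, 4 and 5 with limma on log2(TPM + 1) and log2(TPM + 0.1), 21 in the 6 kidneys, 17 with the Y-linked covariate and 0 to 1 with single kidneys left out. The count of transporters whose groups do not overlap, 4, became 1 in TPM (5.1% of all genes tested), 1 with library totals (4.01%) and 6 in the 6 kidneys (21.8%), alternatives chosen after seeing the data, against 4.03% for all kidneys in CPM. The order of levels gave the same 7 separate pairs with TMM-scaled counts per effective length. The replicate block, with the numbers of the titles, called 0 genes, and 657 had an unadjusted p under 0.05 against 911. Same-numbered kidneys did not deviate together (r = -0.175, 0.048, 0.056 and -0.318), so the numbers were not taken to pair the mice. Depth limits *Slc2a9* most, at 106 to 169 counts per kidney.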

Other observations

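The spread of *Slc5a2* among the mutants was smaller than counting error. Its coefficient of variation was 0.830% over the 4 mutants, where counting error at their depth gives 1.71%, and 9.65% over the 4 controls, where counting error gives 1.36%. For the other 8 transporters the mutant coefficient of variation was 5.92% to 14.9%. With 4 kidneys and no technical repeats, a spread below counting error is a property of these 4 values.

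Controls 3 and 4 differed from controls 1 and 2 in different directions from gene to gene. In TMM-scaled CPM their mean *Slc2a1* was 0.50 higher on the log2 scale and their mean *Slc2a2* was lower, with a log2 difference of -0.23. On that scale *Slc5a2* differed by under 0.01. In TPM, *Slc5a2* was 280 and 320 in controls 3 and 4, against 223 and 276 in controls 1 and 2. *Slc2a2* was 62 and 71 TPM in controls 3 and 4, against 66 and 75 TPM. The labels do not give the sex of the mice, which was read from Y-linked and *Xist* transcripts alone. Each pair holds only 2 kidneys, so no test was run.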
